A study of Homo sapiens with 2 samples.

Results

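RNF is the symbol root given to many human genes whose products carry a RING finger, a zinc-binding fold. The genes described here were the rows of the series table whose symbol is RNF, a number and at most 1 further letter, without RNF5, RNF43, RNF103, RNF139, RNF145 and RNF185. This rule uses names and no measured value. It gave 70 of 21115 genes. They were measured by RNA sequencing of polyadenylated RNA in HCT116, an established human colorectal carcinoma line. One library came from cells given the solvent DMSO for 8 h and one from cells given 1 µM CB-5083 for 8 h. The target of CB-5083 is p97 (gene VCP), an ATPase that unfolds and frees proteins carrying ubiquitin. With 1 library per treatment there is no replicate check of any difference and no p-value is given. Both libraries came from 1 cell line, and the labels do not say how many cultures were pooled.

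A RING finger binds an E2 enzyme charged with ubiquitin and brings it next to a substrate, so that most RING proteins act as E3 ubiquitin ligases and decide which protein is marked. RING-between-RING (RBR) ligases work differently: they take ubiquitin onto a cysteine of their own before passing it on. The shared name does not mean a shared task. RNF-named ligases act on histones at DNA breaks, on receptors at membranes, on stalled ribosomes and on signalling proteins, and p97 handles many proteins after such ligases have marked them.

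Levels are CPM, the usual count unit scaled for depth, from the estimated counts recovered from the deposited values, scaled with TMM (trimmed mean of M values) factors. Ratios compare treated with control cells, as log2 of CPM + 1 with CB-5083 minus log2 of CPM + 1 with DMSO, and a gene was called higher or lower when this log2 ratio reached 1 in either direction (2-fold) and the gene had at least 5 CPM in 1 library. Folds are given without the added 1 CPM, with 95% exact (Clopper-Pearson) intervals that cover counting error only. Estimated counts summed to 29274760 with DMSO and to 31998186 with CB-5083. Where a gene is at 0, up to 3 counts remain possible, or 0.091 CPM (DMSO) and 0.106 CPM (CB-5083). As a check of the cell label, 6 of 7 listed epithelial markers averaged at least 1 CPM, among them EPCAM at 433 and 501 CPM. VIL1 had 1 count with DMSO and none with CB-5083. These markers speak for epithelial cells and do not single out the colon. Of 8 markers of other cell types only COL1A1 reached 1 CPM, at 2.52 and 3.48 CPM, and PTPRC, CD3E, COL1A2, CDH5 and GFAP were at 0 in both libraries.

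Of the 70 members 51 reached 5 CPM in 1 library. In each pair of values here and below the first is DMSO and the second CB-5083. With CB-5083, 2 of these 51 were at least 2-fold higher, RNF19A and RNF19B, and 1 was at least 2-fold lower, RNF128. That is 3.92% and 1.96% of the members, against 7.22% higher and 4.91% lower among all 9543 genes that reached 5 CPM. At 1.5-fold, 10 members (19.6%) were higher and 7 (13.7%) lower, near the 17.4% and 12.5% of all genes. The other 34 members lay within 1.5-fold. The median log2 ratio of the 51 members was 0.16 and that of the 9543 genes 0.09. As a group, the RNF genes therefore lay close to the transcriptome at large.

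**Figure D1:**
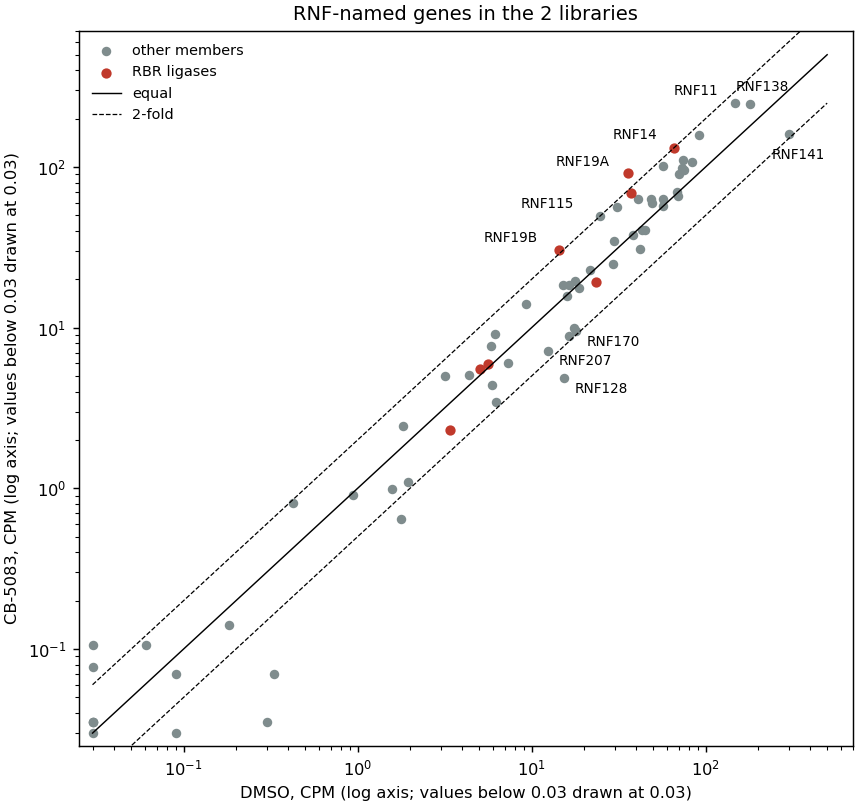
Each point is 1 of the 70 members, with its level in CPM with DMSO on the horizontal log axis and with CB-5083 on the vertical log axis, and red points are RBR ligases. Solid and dashed lines mark equal levels and 2-fold differences: RNF19A and RNF19B lie above the upper dashed line, RNF14 and RNF115 on it, RNF128 below the lower one and RNF141 just inside it. At low levels RNF165, RNF157, RNF208 and RNF112 also lie below the lower line, and RNF222 and RNF223 above the upper one. RNF112, RNF222 and RNF223 are at 0 in 1 library. Members with at most 3 counts in both libraries are drawn too, and values of 0 are drawn at a small fixed value near the edge.

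Promoter sequence was available in RefSeq (GRCh38.p14) for 57 of the 70 members, and the 250 bases before the start were searched on both strands. The motifs were chosen after the ratios were known. The amino acid response element TGATGNAA, bound by ATF4 with C/EBP partners, was in 1 of 57 windows (1.75%), that of RNF182, and in 3.19% of all 27305 windows. The core TGACGTG, bound by ATF6 and XBP1, was in none, against 1.71% of all. The cAMP response element TGACGTCA was in 1, that of RNF7, against 1.77% of all. The whole ER stress element (ERSE) was in none, against 0.0806% of all, while its outer parts CCAAT and CCACG alone were in 22 (38.6%) and 20 (35.1%), against 33.0% and 33.3%. The letters CTTTGAT, which TCF and LEF factors bind, were in none, against 2.28% of all. A window without a motif says only that these letters are absent there.

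The windows of RNF14 and RNF216 are shown as the RBR ligases with high ratios that have an entry, and those of RNF128 and RNF141 as the lowest ratio and the largest loss of CPM. Capitals mark CCAAT and CCACG on either strand, each 5′ to 3′ along the gene.
RNF14: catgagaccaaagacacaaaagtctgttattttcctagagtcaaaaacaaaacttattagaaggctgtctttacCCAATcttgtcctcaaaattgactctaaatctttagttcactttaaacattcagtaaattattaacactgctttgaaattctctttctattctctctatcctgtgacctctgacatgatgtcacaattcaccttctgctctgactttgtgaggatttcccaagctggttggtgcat
RNF216: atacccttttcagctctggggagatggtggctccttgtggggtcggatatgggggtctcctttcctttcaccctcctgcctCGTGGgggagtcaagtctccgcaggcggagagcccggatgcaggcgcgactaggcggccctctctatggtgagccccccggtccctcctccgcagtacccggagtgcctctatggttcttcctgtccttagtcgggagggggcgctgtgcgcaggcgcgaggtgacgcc
RNF128: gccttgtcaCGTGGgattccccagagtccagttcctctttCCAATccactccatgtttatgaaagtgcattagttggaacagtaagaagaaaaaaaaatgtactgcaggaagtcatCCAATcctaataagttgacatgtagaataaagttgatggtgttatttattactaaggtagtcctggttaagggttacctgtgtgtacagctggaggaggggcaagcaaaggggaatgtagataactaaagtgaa
RNF141: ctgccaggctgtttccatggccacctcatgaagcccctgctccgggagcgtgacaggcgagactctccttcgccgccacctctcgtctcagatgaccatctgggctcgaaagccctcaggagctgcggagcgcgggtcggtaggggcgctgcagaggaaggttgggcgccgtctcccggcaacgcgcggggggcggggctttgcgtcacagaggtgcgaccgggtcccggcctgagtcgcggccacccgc
They lie at chr5:141966593-141966842 (plus strand) for RNF14, chr7:5781664-5781913 (minus strand) for RNF216, chrX:106693588-106693837 (plus strand) for RNF128, chr11:10541188-10541437 (minus strand) for RNF141 in GRCh38.p14. The windows differ in composition. RNF14 has 36.0% G and C and no CG dinucleotide, RNF128 40.8% and 1, RNF216 65.2% and 17, and RNF141 70.0% and 26. The median of the 57 members was 63.6% with 19 CG dinucleotides, and that of all windows 58.0% with 11.

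The counts are large enough that many small differences exceed counting error. A fold of 1 lay outside the counting interval for 37 of the 51 members (72.5%), 25 of them higher and 12 lower, and for 80.7% of all genes tested. This says how precisely the libraries were read and not how much 2 cultures of the same kind would differ. Among members with a mean of at least 50 CPM, 17 of 20 had a ratio above 0, and among the less expressed 15 of 31. All genes showed a like split, with 73.0% and 46.4% above 0.

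The scaling matters for these calls. With library totals in place of TMM the median of all genes moved by -0.33 on the log2 scale, and of 49 members that reached 5 CPM none was called higher and 6 were called lower: RNF128, RNF141, RNF170, RNF213, RNF26 and RNF207. Over all genes 3.86% were then higher and 10.3% lower. RNF128 was called lower under TMM and under each of the 3 other scalings, whereas neither higher call held under every one. In a bulk sample, fewer cells with a transcript and less of it per cell cannot be told apart.

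**Figure D2:**
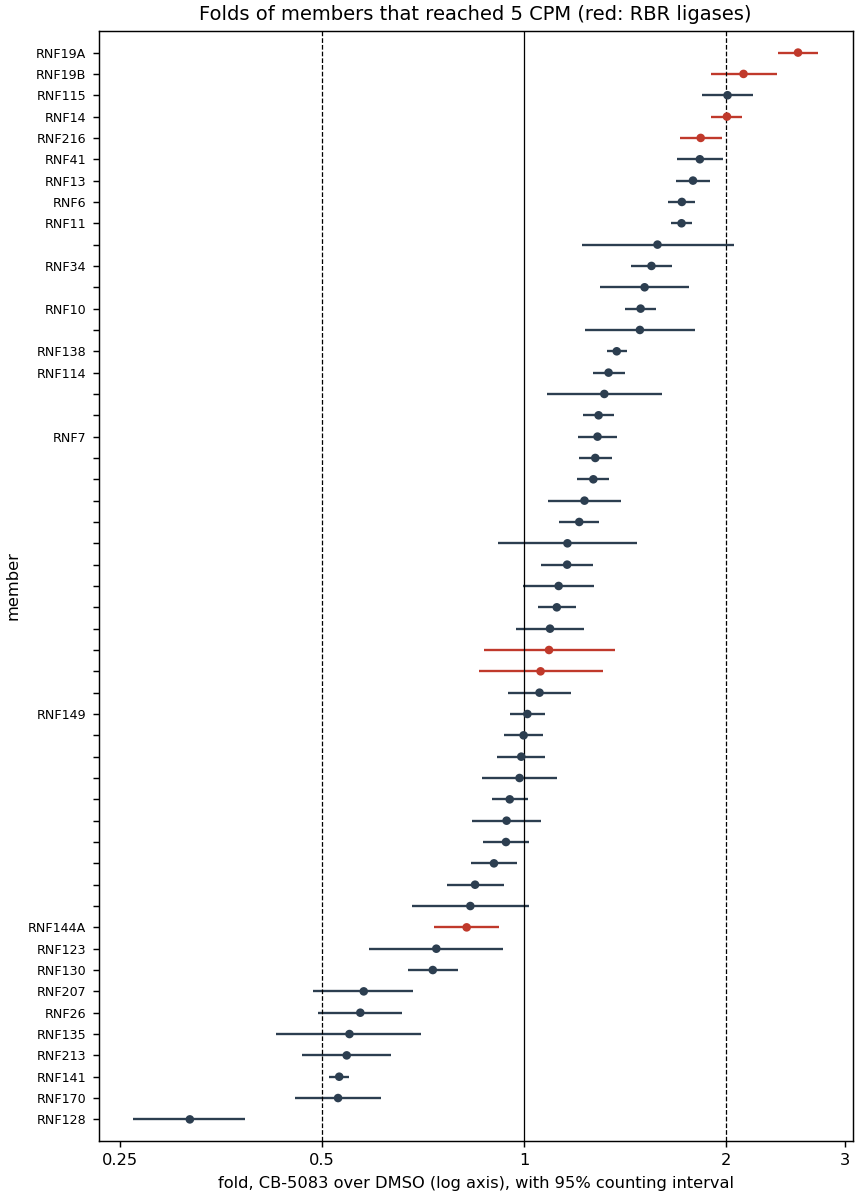
Points are the fold of CB-5083 over DMSO (log axis) for the 51 members that reached 5 CPM, bars are 95% counting intervals, red marks the RBR ligases, and the 25 members chosen by the naming rule are labelled. RNF19A at 2.56-fold is at the top and RNF128 at 0.317-fold at the bottom, and most members sit between the dashed lines at 0.5 and 2.

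The RBR ligases held 4 of the 5 highest ratios of all RNF members, while 7 of the 51 tested members were RBR ligases. These 4 were RNF19A, RNF19B, RNF14 and RNF216, and with library totals none of them reached 2-fold. The list was chosen with earlier results of these data known, and its place in the order was not tested. RNF19A (dorfin), an RBR ligase of protein inclusions, lies on chromosome 8 (hg19, 101269288 to 101322327). Its level was 35.9 CPM in control and 91.7 CPM in treated cells. The fold was 2.56 (2.39 to 2.74), and 96.0% of the genes tested had a lower ratio. With library totals its log2 ratio was 0.995, just short of the threshold. Its paralog RNF19B, a ligase known from cytotoxic lymphocytes, on chromosome 1 from 33402050 to 33430286, was at 14.4 and 30.6 CPM (2.12-fold, 1.895 to 2.38). Its log2 ratio of 1.03 became 0.95 with upper quartile scaling and 0.71 with library totals. The log2 ratios of RNF19A and RNF19B differed by 0.30. Exons of RNF19A overlap those of SPAG1 on the other strand over 205 bases, and the counting is not stated to use strand. Such overlaps make values uncertain for other members too, with the longest on the other strand at RNF215 (3098 bases with CCDC157), RNF40 (2219 with an unnamed transcript), RNF169 (2184 with XRRA1), RNF219 (1448 with its antisense RNA) and RNF214 (1239 with BACE1), and shorter ones at RNF14 (108 with PCDH12), RNF13 (107 with ANKUB1), RNF34 (439 with KDM2B) and RNF10 (84 with COQ5).

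RNF14, a coactivator of the androgen receptor that also acts on stalled ribosomes, on chromosome 5 from 141346402 to 141369856, was at 65.6 and 131 CPM. The fold of 2.004 (1.8998 to 2.11) lay at the threshold, its log2 ratio being 0.99 here and 1.005 under median of ratios scaling. RNF216 (TRIAD3), a ligase for innate immune receptors, was at 37.5 and 68.7 CPM (1.83-fold, 1.704 to 1.97). The transcribed pseudogene RNF216P1 was at 7.97 and 16.7 CPM, and reads shared between RNF216 and this copy leave both values uncertain. The remaining RBR members did not share these ratios. RNF31 (HOIP), the catalytic subunit of the linear ubiquitin chain assembly complex (LUBAC), was at 5.06 and 5.51 CPM and RNF217 at 5.63 and 5.95 CPM, both with intervals that hold 1. RNF31 shares 1732 exonic bases with another protein-coding gene model on the same strand, which strand cannot resolve, and 216 with PSME2 on the other, so its value is uncertain. RNF144A, which targets DNA-PKcs, was at 23.6 and 19.4 CPM (log2 ratio -0.27), and RNF144B, under the filter, at 3.40 and 2.32 CPM. Of the 7 RBR members that reached 5 CPM 2 were called higher (28.6%, against 7.22% of all genes tested) and none lower. Their median was 0.86. Over all 8 measured RBR members, with RNF144B, it was 0.48, and 0.17 with library totals.

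RNF31 works with partners that are not RNF genes. Among 9 listed genes of linear ubiquitin and other RBR ligases, 7 reached 5 CPM. Of these 2 were higher (28.6%, against 7.22% of all genes tested) and none lower, with a median of 0.64. RBCK1 (HOIL-1), the LUBAC subunit that is itself an RBR protein, was at 13.6 and 53.8 CPM (3.97-fold, 3.57 to 4.42). Its ratio was higher than that of 98.6% of the genes tested. SHARPIN, the remaining LUBAC subunit, did not reach 5 CPM and was at 1.06 and 0.60 CPM (35 and 17 counts). CYLD, a deubiquitinase that cuts linear chains, was at 18.5 and 50.9 CPM (2.75-fold, 2.497 to 3.02), and FAM105B (OTULIN), a deubiquitinase specific for linear chains, at 37.7 and 35.3 CPM. ARIH1, the most expressed gene of this list and an RBR ligase that works with cullins, was at 139 and 254 CPM (1.82-fold). Of the 3 LUBAC subunits RBCK1 stood apart from RNF31 (0.871 to 1.36) and SHARPIN (0.296 to 1.03), whose counting intervals of the fold overlap and hold 1.

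**Figure D3:**
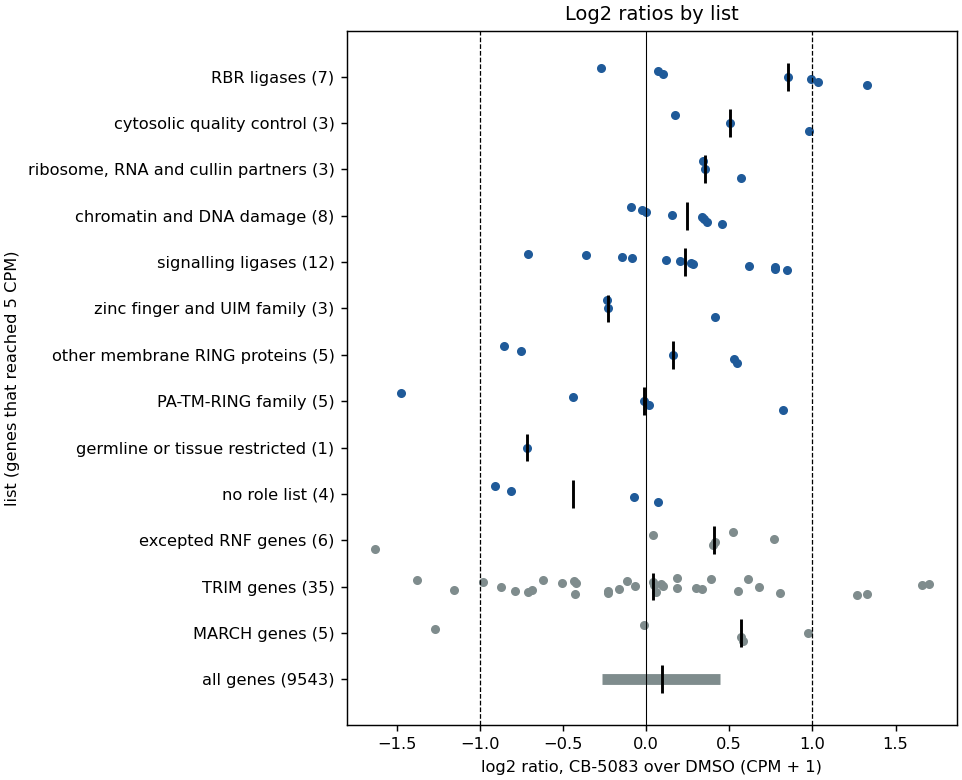
Points are log2 ratios of CB-5083 over DMSO for genes that reached 5 CPM, by list with the number of genes in brackets, and black bars are medians; blue marks RNF members and grey the lists set beside them, with the grey band of all genes running from the 25th to the 75th percentile. Of the genes shown the RBR list has the highest median, 0.86, and TRIM genes spread on both sides of a median of 0.04. Over all 8 measured RBR members the median was 0.48, below the 0.57 of the MARCH genes.

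Ligases of chromatin and DNA damage lay close together, and none of 8 passed 2-fold or 1.5-fold. Of all genes tested 7.22% were higher and 4.91% lower at 2-fold, and 70.1% lay within 1.5-fold. RNF8, which starts ubiquitin signalling at double-strand breaks, was at 43.3 and 40.6 CPM, and RNF168, which extends it on histone H2A, at 57.2 and 57.1 CPM. RNF169, which competes for the same mark, was at 56.7 and 63.4 CPM. RNF2 (RING1B), the catalytic subunit of Polycomb repressive complex 1, was at 83.6 and 108 CPM (1.29-fold, 1.22 to 1.36). RNF20 and RNF40 form 1 ligase for histone H2B. RNF20 was at 70.5 and 90.0 CPM and RNF40 at 16.02 and 15.8 CPM, so that their log2 ratios differed by 0.37. RNF4, a ligase for SUMO-modified proteins, was at 75.4 and 95.6 CPM. RNF138, which promotes the resection of broken DNA ends, was the most expressed of them at 180.4 and 248 CPM (1.37-fold, 1.33 to 1.42), and its pseudogene RNF138P1 was at 0.83 and 1.09 CPM. The list's median was 0.25, and -0.089 with library totals.

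Partners of these ligases were mostly within 2-fold too. Of 12 tested genes of break-site ubiquitin signalling and 11 of H2B ubiquitination none passed 2-fold in either direction. Among all genes tested 7.22% were higher and 4.91% lower. The lists' medians were -0.04 and -0.12. UBE2N, the E2 used by RNF8, had the highest level of the first list with DMSO, at 249 and 204 CPM, and RIF1, a 53BP1 effector, with CB-5083, at 155 and 220.4 CPM. In the second list CTR9, a subunit of the PAF1 complex, led with DMSO at 223 and 161 CPM, and WAC, an adaptor of the RNF20 and RNF40 ligase, with CB-5083 at 215 and 385 CPM (1.79-fold, 1.74 to 1.84). Around RNF2, 2 of 15 tested PRC1 partners were higher (13.3%) and 2 lower (13.3%), against 7.22% and 4.91% of all genes tested. PCGF1 (2.26-fold, 1.97 to 2.601) was among those higher, while the chromodomain proteins CBX6, at 12.4 and 4.01 CPM, and CBX2, at 7.16 and 2.22 CPM, were lower. PCGF5, the most expressed partner, was at 114 and 127 CPM. None of 16 E2 enzymes that RING ligases use passed 2-fold, where 7.22% of all genes tested were higher and 4.91% lower. The median of the 16 was 0.19 (-0.15 with library totals). UBE2D3, the most expressed, was at 504 and 665 CPM.

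Membrane ligases of the PA-TM-RING family, which carry a protease-associated domain outside and a RING inside the membrane, differed among themselves more than the chromatin ligases. RNF128 (GRAIL), known for T cell anergy, on chromosome X from 105937068 to 106040246, went from 15.3 CPM in control to 4.86 CPM in treated cells, 3.15-fold lower (2.604 to 3.83). Only 1.4% of the genes tested had a lower ratio. RNF130 (goliath homolog) was at 42.0 and 30.7 CPM (1.37-fold lower, 1.26 to 1.49). RNF149, with the highest level of the family with DMSO, was at 68.7 and 69.5 CPM, and the lysosomal ligase RNF167 at 38.1 and 37.7 CPM. RNF13, a ligase of ER and endosomal membranes that is linked to the stress sensor IRE1, was at 57.3 and 102 CPM (1.78-fold, 1.68 to 1.89). RNF13 and RNF167 are paralogs, and their log2 ratios differed by 0.84. RNF133 and RNF148 had at most 3 counts in either library.

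Outside the list of members, 2 PA-TM-RING genes had ratios like that of RNF128. RNF43, excepted by the rule, was at 52.0 and 16.1 CPM and ZNRF3 at 22.7 and 7.61 CPM, 3.23-fold (2.91 to 3.59) and 2.98-fold (2.56 to 3.49) lower. Both remove WNT receptors from the cell surface. Of the 6 excepted RNF genes 1, RNF43, was lower (16.7%, against 4.91% of all genes tested) and none higher, with a median of 0.41.

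Other membrane RING proteins gave no call among 5 tested, against 7.22% higher and 4.91% lower of all genes tested. RNF170, an ER ligase that degrades activated inositol trisphosphate receptors, was at 18.1 and 9.53 CPM (1.89-fold lower, 1.64 to 2.19). RNF26, an ER protein that holds endosomes near the nucleus, was at 17.5 and 9.99 CPM (1.76-fold lower, 1.52 to 2.03). RNF121, of the ER and Golgi, was at 9.31 and 14.1 CPM and RNF24 at 3.19 and 5.03 CPM, both in the other direction. RNF182 was at 16.4 and 18.4 CPM. RNF122, the paralog of RNF24, was under the filter at 1.58 and 0.99 CPM, and the lysosomal ligase RNF152 had 6.0 and 4.0 counts.

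Among 12 tested signalling ligases none passed 2-fold, against 7.22% higher and 4.91% lower of all genes tested. Of the 12, 5 were past 1.5-fold, against 17.4% higher and 12.5% lower of all genes tested, and the median was 0.24. Over the 13 measured ones the median was 0.21, and -0.13 with library totals. The 7 within 1.5-fold included RNF44 at 15.1 and 18.6 CPM, RNF187 at 29.9 and 34.6 CPM and RNF220 at 18.8 and 17.7 CPM. RNF41 (NRDP1), which degrades the receptor ERBB3, was at 31.0 and 56.6 CPM (1.83-fold, 1.69 to 1.98). RNF11, a small adaptor of the A20 complex, was the most expressed of them at 147 and 252 CPM (1.71-fold, 1.65 to 1.78). RNF6, which modifies the androgen receptor, was at 91.6 and 157 CPM (1.72-fold), and RNF34, a ligase for initiator caspases, at 40.7 and 62.9 CPM (1.55-fold). RNF135 (Riplet), which activates the RNA sensor RIG-I, lay on the other side at 6.28 and 3.45 CPM (1.82-fold lower, 1.43 to 2.34). RNF123 (KPC1), which degrades p27, was at 5.95 and 4.40 CPM (1.35-fold lower, 1.075 to 1.71). Its exons overlap those of GMPPB on the other strand over 1166 bases. RNF146, the PAR-dependent ligase for axin, was at 17.8 and 19.4 CPM and RNF111 (Arkadia), a ligase of TGF-beta signalling, at 49.2 and 59.4 CPM. RNF165, the paralog of RNF111, was under the filter at 1.77 and 0.65 CPM, and the log2 ratios of the pair differed by 1.01.

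Of ligases with tasks in cytosolic protein quality control, RNF115 (BCA2) was at 24.8 and 49.8 CPM. Its fold of 2.01 (1.84 to 2.19) passed 2, but its log2 ratio with the added 1 CPM was 0.98 and it was not called. Its paralog RNF126, which works with BAG6 on proteins that miss the membrane, was at 4.40 and 5.10 CPM, and RNF181 at 6.13 and 9.11 CPM. The exons of RNF115 overlap those of CD160 on the other strand over 421 bases. In the list of ribosome, RNA and cullin partners, RNF10, which modifies the small ribosomal subunit, was at 74.2 and 111 CPM (1.49-fold, 1.41 to 1.57). RNF7 (RBX2), the RING partner of CUL5, was at 48.9 and 62.9 CPM, RNF25 at 5.86 and 7.71 CPM, and the splicing factor RNF113A, under the filter, at 1.82 and 2.46 CPM. The 3 tested members of this list all lay above 0, as did 5473 of the 9543 genes tested. The median of the 3 was 0.36. With library totals their log2 ratios were 0.23 (RNF10), 0.020 (RNF7) and 0.047 (RNF25).

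The list of zinc finger and UIM ligases, named for the ubiquitin-interacting motif, gave no call among its 3 genes. Of all genes tested 7.22% were called higher and 4.91% lower. RNF138 was listed with the chromatin ligases above and not here. RNF114 was at 73.4 and 98.0 CPM (1.34-fold, 1.26 to 1.41), RNF125 at 29.4 and 24.9 CPM and RNF166 at 7.28 and 6.05 CPM. RNF125 and RNF138 are neighbours on chromosome 18, where RNF125 ends at 29653154 and RNF138 starts at 29671818, and their log2 ratios were -0.23 and 0.46.

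RNF141, a RING protein studied in spermatogenesis and on no list above, had the highest level of all members with DMSO. On chromosome 11 from 10533225 to 10562774, it had 303 CPM in control and 161 CPM in treated cells, 1.89-fold lower (1.82 to 1.95). Of all genes tested 6.13% had a lower ratio. The log2 ratio of -0.91 passed the threshold with upper quartile scaling (-1.002) and library totals (-1.25). RNF141 held 13.4% of the summed CPM of the 70 members with DMSO and 5.85% with CB-5083. Without it the members summed to 1962 CPM in control and 2589 CPM in treated cells, and with it to 2266 and 2750 CPM. Over all genes these scaled CPM summed to 888270 in control and 1125800 in treated cells, so a higher sum is not particular to the members. RNF213, a giant protein with both an AAA ATPase and a ligase function, was at 16.4 and 8.92 CPM (1.84-fold lower, 1.58 to 2.14). RNF219, which marks the origin recognition complex, was at 69.7 and 66.3 CPM and RNF214 at 21.6 and 22.8 CPM.

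**Figure D4:**
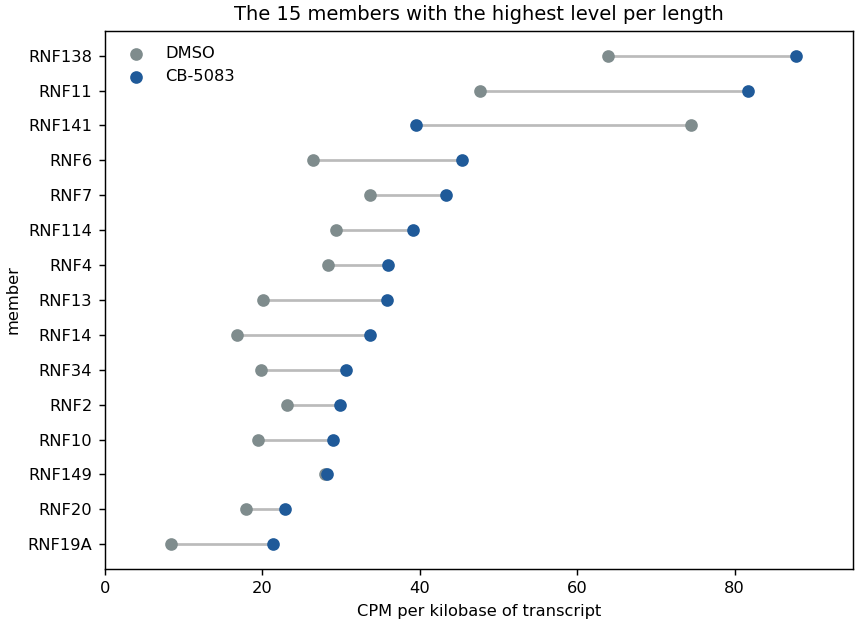
Points give CPM per kilobase of transcript with DMSO (grey) and CB-5083 (blue) for the 15 members with the highest level per length, on a linear axis that starts at 0. RNF141 moves from 74.5 to 39.5, while RNF138 and RNF11 reach 87.8 and 81.7 with CB-5083.

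Per length of transcript, a level that can be compared between genes where the lengths hold, RNF141 led with DMSO at 74.5 CPM per kilobase. It was followed by RNF138 at 64.0, RNF11 at 47.6, RNF7 at 33.7 and RNF114 at 29.3. With CB-5083 RNF138 led at 87.8 CPM per kilobase, followed by RNF11 at 81.7, RNF6 at 45.4, RNF7 at 43.4 and RNF141 at 39.5. RNF14 went from 16.8 to 33.7 and RNF19A from 8.33 to 21.3 CPM per kilobase. With 1 library each, the spread behind this order is not known. Transcript length had no visible relation with the ratio over the 51 members (Spearman's rho 0.021). The length used for RNF213, 5316 bases, may be partial. Mean level had a weak relation with the ratio over the 51 members (rho 0.41). These points share both libraries.

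Of the remaining 19 members 5 averaged at least 1 CPM and 14 less. RNF207, a regulator of cardiac potassium channels, was the only germline or tissue restricted member to reach 5 CPM, at 12.5 and 7.19 CPM (1.73-fold lower, 1.47 to 2.07). Its exons overlap those of RPL22 and ICMT on the other strand over 243 and 107 bases. RNF32 was at 1.94 and 1.09 CPM. At or below 3 counts in both libraries were RNF112, RNF133, RNF148, RNF151, RNF180, RNF183, RNF212, RNF222 and RNF223, with RNF212 at 0 in both, and no fold is given for these. RNF157 had 10.9 and 2.0 counts and RNF208 had 10.0 and 1.0 counts. RNF39 and RNF215 had 14 and 31 counts with DMSO and 23 and 26 with CB-5083.

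**Figure D5:**
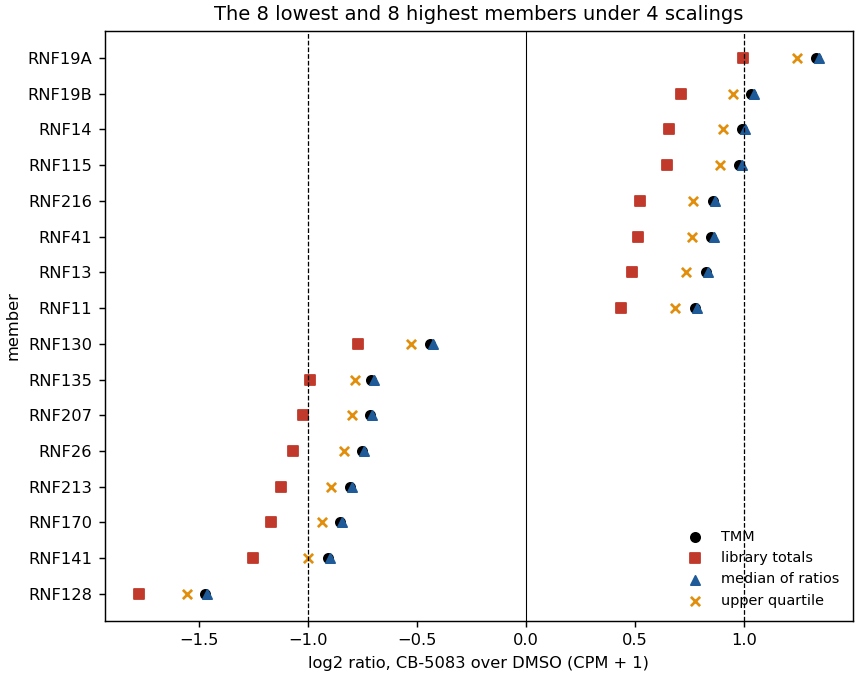
Points are log2 ratios of CB-5083 over DMSO for the 8 members with the lowest and the 8 with the highest ratio, each under 4 scalings, and dashed lines mark 2-fold. RNF128 is beyond the lower line under each scaling, while with library totals RNF19A (0.995) falls short of the upper line and RNF141, RNF170, RNF213, RNF26 and RNF207 pass the lower one.

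TRIM and MARCH genes, which also encode RING ligases, were set beside the RNF genes. Of 35 TRIM genes that reached 5 CPM, 4 were higher (11.4%) and 2 lower (5.71%), with a median of 0.04. Of 5 MARCH genes none was higher and 1 lower (20.0%), with a median of 0.57. Among all genes tested 7.22% were higher and 4.91% lower. In the RNF members 66.7% lay within 1.5-fold, in the TRIM genes 57.1% and in all genes 70.1%. Without replicates none of these differences between families was tested.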

How the data were processed

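RNA from 1 DMSO and 1 CB-5083 library of HCT116 cells was sequenced from a stranded mRNA kit, per the labels' protocols. RSEM 1.2.0 and build hg19 are named in the submitters' processing notes; aligner and use of strand: not given in the sources used here. Values headed counts in the deposited tables are a scaled signal that the authors made from estimated counts. Low values are mostly multiples of a step of 1.079 (DMSO) and 1.1752 (CB-5083). Of deposited values above 0 and up to 5, 77.6% and 79.4% were within 0.02 of a whole number after division by the step. The 75th percentile is 999.73 and 999.89. Division by these steps gave estimated counts for 21115 genes; 1 row without a value was left out. TMM factors (1.1258 and 0.8883) were computed in Python 3.11.15 (scipy 1.17.1, numpy 2.4.6, pandas 2.3.3; figures with matplotlib 3.10.9), and the calculation was tested on simulated data. Levels per kilobase used the mean length of GENCODE 29 transcripts, matched by RefSeq accession for 69 members and by symbol for 1; exon overlaps came from the same annotation. No count test was run, since each treatment was 1 library. Members and lists were chosen with earlier results of these data known. Named members were those past 2-fold, the 10 highest and 10 lowest ratios, the 5 highest levels per kilobase, the most expressed and the most altered of each list, and those whose call moved with the scaling; others were named, after their values were seen. Single values of 1 member and 1 partner gene are not reported here. Other scalings, pseudocounts, filters and fold thresholds were tried.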

Additional observations from a re-analysis of the deposited data

How the results depend on the processing

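The counts of members at least 2-fold higher (2) and lower (1) and the median log2 ratio of measured members (0.14) were recomputed. With library totals they became 0, 6 and -0.18, so that the median reversed; with upper quartile scaling 1, 2 and 0.052; with median of ratios 3, 1 and 0.15. A pseudocount of 0.25 CPM gave 3 higher, with RNF14 added, one of 4 CPM gave 1 higher and a median of 0.11, and a fold threshold of 1.5 gave 10 higher and 7 lower. Adding the 6 excepted RNF genes gave 2 lower and a median of 0.16, and a mean of at least 5 CPM a median of 0.16. The filters on low values changed neither count. Of 25 named members 21 moved by more than their counting interval with library totals, and 11 with the upper quartile. Of these 25 only RNF149, which was not called, changed sign, from 0.015 to -0.32 with library totals and -0.074 with the upper quartile. Members outside the 25 also turned negative with library totals, among them RNF111 (0.27 to -0.069), RNF187 (0.21 to -0.13) and RNF169 (0.16 to -0.18). RNF214 did so with library totals and the upper quartile (0.072 to -0.25 and -0.014). The cause was not tested. No paired analysis was possible because each treatment was 1 library. Depth limits the 9 members with at most 3 counts in both libraries.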

Other observations

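RING ligases outside the RNF names were chosen here after their values were seen. RFFL, a relative of RNF34 that acts on endosomes, had 51.0 CPM in control and 95.1 CPM in treated cells (1.86-fold, 1.75 to 1.98). RLIM, a relative of RNF6, was at 109.5 and 154.7 CPM (1.41-fold, 1.35 to 1.48). RNFT1 was at 29.7 and 42.3 CPM and its paralog RNFT2 at 2.59 and 1.07 CPM, with log2 ratios of 0.49 and -0.79. ZNRF1 and ZNRF2 had log2 ratios of -0.36 and -0.33. The TRIM genes called higher were TRIM5, TRIM16, TRIM25 and TRIM38, of which TRIM25, a ligase of the RIG-I pathway, had the highest level, at 174 and 438 CPM. TRIM47, at 6.71 and 2.46 CPM, and TRIM65, at 20.6 and 7.32 CPM, were called lower.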
